A study of Mus musculus with 6 samples.

Results

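Lysosomal hydrolases, lysosomal membrane proteins and proton pump genes were followed in knee articular cartilage of WT and adseverin knockout mice. The 36 genes were listed by symbol, with earlier results of these data known. Each was found once among the 55401 genes of the count table, through its Ensembl identifier on GRCm38. They comprise 10 cathepsins, 7 glycosidases, 3 sulfatases, 5 genes of lipid breakdown and sterol export, 3 membrane glycoproteins, 6 genes of the proton pump, the transcription factor Tfeb and the calcium channel Mcoln1. All 36 passed the low-count filter, which left 16260 genes for testing.

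The 2 groups were CTRL (genotype WT, 3 libraries) and CKO (adseverin knockout, 3 libraries), both taken from mice harvested at 10 weeks. Both groups had received tamoxifen, 1.5 mg per 10 g body weight a day for 5 days from 8 weeks of age, so the drug does not separate them. The Cre driver, the deleted exons, any floxed allele or Cre in the WT mice and whether a library holds 1 mouse or a pool are unstated in the labels. P-values therefore measure the spread between these libraries, which may be partly technical. Library totals ran from 22664828 to 31014996 reads. Scin, which encodes adseverin, an actin-severing and capping protein, stood at 186, 185 and 219 CPM in CTRL and 39.1, 29.9 and 29.4 CPM in CKO (CPM, read counts scaled to a common library size, with TMM factors). It was the 1 gene of 16260, or 0.00615%, past a Benjamini-Hochberg adjusted p of 0.05 in edgeR's quasi-likelihood test (adjusted p = 6.59e-04). The labelled cell type is the native articular chondrocyte. Chondrocyte markers were abundant, with Col2a1 at 14452 to 20596 CPM over the 6 libraries, and so were the bone matrix gene Ibsp at 23181 to 30048 CPM and the osteoclast protease Ctsk at 424 to 1002 CPM.

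The lysosome is the acidic compartment in which cells break down proteins, glycans and lipids taken up from outside or delivered by autophagy. The vacuolar H+-ATPase (V-ATPase) pumps protons into it, and cathepsins, glycosidases, sulfatases and lipases work at the resulting low pH. In cartilage this machinery degrades internalised aggrecan, collagen fragments and glycosaminoglycan chains, and inherited loss of single glycosidases or sulfatases causes storage disease with skeletal involvement. TFEB, a basic helix-loop-helix factor, activates many lysosomal genes by binding an extended E-box called the CLEAR element.

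None of the 36 genes passed the adjusted threshold in edgeR, the smallest adjusted p being 0.605, for Ctss. At an unadjusted p under 0.05, 5 genes were lower in CKO and 0 were higher: the cysteine cathepsins Ctss, Ctsl and Ctsb, and the proton pump genes Atp6ap2 and Atp6v1h. Those 5 make up 13.9% of the 36, while 6.5% of all tested genes passed that rule, 2.96% lower and 3.54% higher. Values did not overlap between the groups for 5 genes, all with CKO below CTRL (Ctss, Ctsl, Atp6ap2, Atp6v1h and Ids), again 13.9%. Over all tested genes 12.3% did not overlap, 5.89% with CKO below and 6.41% with CKO above. The groups were compared with edgeR throughout, and fold changes are on the log2 scale, CKO minus CTRL, ± SE.

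The summed level of all 36 was 9028 ± 331 CPM in CTRL and 8606 ± 87.3 CPM in CKO (SD, n = 3). The lowest CTRL sum (8743, CTRL 2) lay just above the highest CKO sum (8702, CKO 2), and without the 6 proton pump genes the sums overlapped (7465 in CTRL 2 and 7511 in CKO 2). The pump genes alone summed to 1354 ± 86.3 CPM in CTRL and 1291 ± 89.2 CPM in CKO, with overlap. The 8 cysteine cathepsins summed to 2868 CPM in CTRL and 2501 CPM in CKO. Most of that was Ctsb, whose groups overlapped, at 1873 CPM in CTRL and 1609 CPM in CKO. The median log2 fold change of the 36 was -0.04, beside 0.004 over all tested genes, and 15 of 36 lay above 0 (41.7%, beside 50.6% of all genes). That count was 13 with RLE factors or with library sizes alone. For 30 of the 36 the 95% interval of the fold change stayed within 1.5-fold in either direction, and for 35 of 36 within 2-fold, the exception being Ctss. Over all tested genes these shares were 39% and 62.2%. The genes were well covered, with 381 reads in the thinnest case (Npc1) and a median SE of 0.11 beside 0.23 over all genes. In counts simulated from these libraries, changed genes were drawn from all tested genes. There the same test recovered 46.5% of genes changed 2-fold and 74.2% of those changed 4-fold. Recovery for the 36 genes alone was not worked out.

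**Figure D1:**
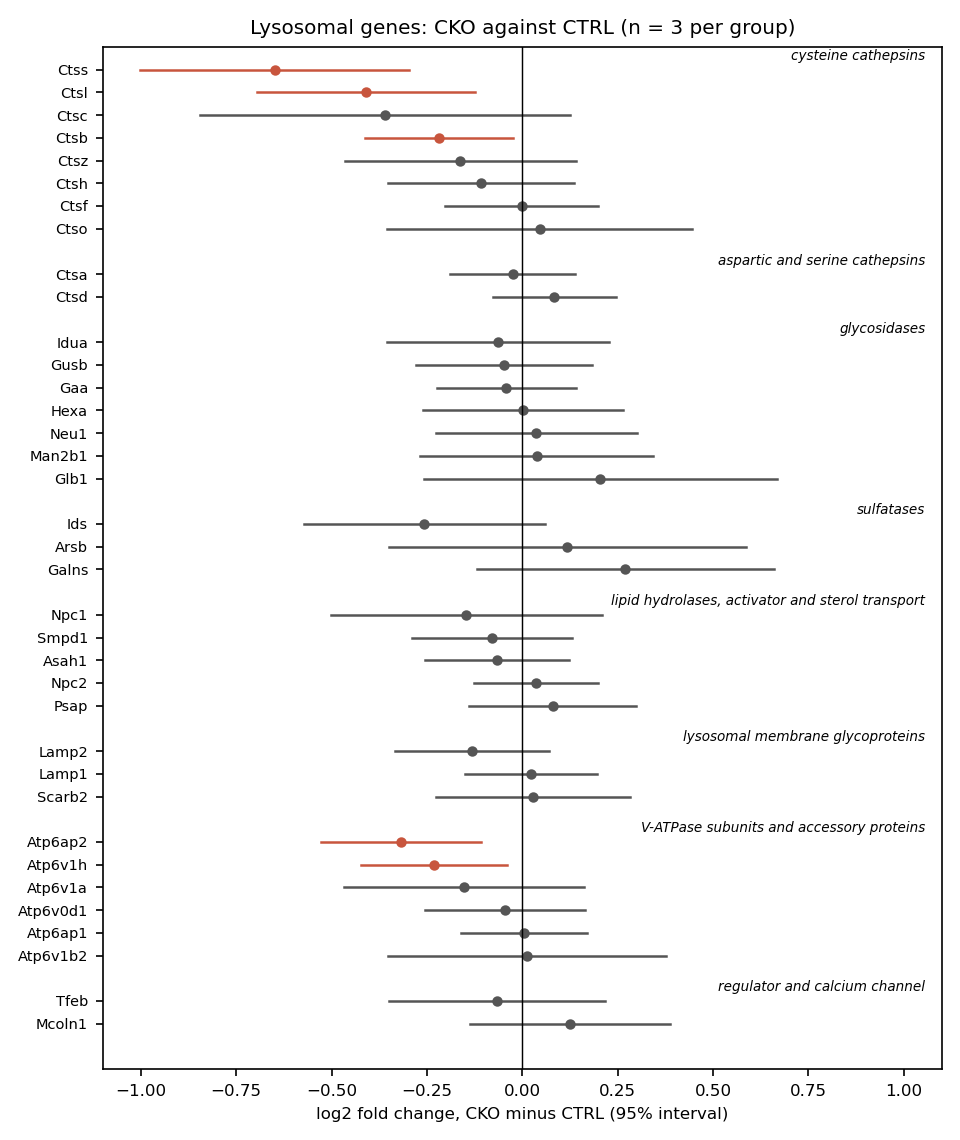
Log2 fold change, CKO minus CTRL, of the 36 genes with 95% intervals (x axis), grouped by role, with the role named above each group at the right; n = 3 libraries per group. Red marks the 5 genes at an unadjusted p under 0.05, all of them below 0; the other intervals include 0.

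Cathepsins are the main lysosomal proteases, and 8 of the 10 measured here are cysteine proteases of the papain family. Of these 8, 7 had a log2 fold change below 0 and 3 were lower at an unadjusted p under 0.05. Over all tested genes 50.6% lay above 0 and 2.96% were lower under that rule. The median of the 8 was -0.19. Ctss encodes cathepsin S, which is active up to neutral pH and trims the invariant chain of MHC class II in antigen-presenting cells. It measured 77.1, 66.5 and 56.2 CPM in CTRL and 36.3, 48.8 and 42.3 CPM in CKO. Every CKO library was below every CTRL library, with a log2 fold change of -0.65 ± 0.15 and a 95% interval of the CKO to CTRL ratio from 0.499 to 0.814. The unadjusted p was 0.00268 in edgeR. DESeq2 gave Ctss an adjusted p of 0.0265, and it was the 1 gene of the 36 past that threshold there, among 82 genes in all. With single libraries left out the log2 fold change of Ctss ran from -0.76 to -0.53.

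Ctsl encodes cathepsin L, a broad endopeptidase able to cleave collagen and aggrecan. It stood at 86.0, 108 and 87.4 CPM in CTRL and 79.6, 64.7 and 67.4 CPM in CKO. CTRL 2 was the highest library and the groups did not overlap (log2 fold change -0.41 ± 0.13, edgeR unadjusted p = 0.0107, adjusted p = 0.658). Ctsb, cathepsin B, was the most abundant of the 36 per length, at 309 ± 20.4 CPM per kb of exon in CTRL and 266 ± 20.02 in CKO (SD, n = 3). Its CPM values were 1972, 1734.5 and 1912 in CTRL and 1544, 1749 and 1535 in CKO. CKO 2 lay above CTRL 2, so the groups overlapped, and the log2 fold change was -0.22 ± 0.09 (edgeR unadjusted p = 0.0320, adjusted p = 0.715). Without CTRL 1, CTRL 3, CKO 1 or CKO 3 the unadjusted p of Ctsb was above 0.05, between 0.0829 and 0.0878, whereas Ctss and Ctsl stayed under 0.05 with each library left out.

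Ctsz, cathepsin Z, a carboxypeptidase, was the second most abundant cysteine cathepsin per length. Its values of 393, 278 and 300 CPM in CTRL and 304, 268 and 295 CPM in CKO overlapped, and CTRL 1 stood apart at the top (log2 fold change -0.16 ± 0.13, and -0.002 without CTRL 1). Ctsc, cathepsin C, which activates granule serine proteases of leukocytes, ranged from 43.8 to 63.4 CPM in CTRL and from 29.5 to 50.1 CPM in CKO (-0.36 ± 0.21). It was at -0.19 without CTRL 1, at -0.18 without CKO 1 and at -0.54 without CKO 3, where the edgeR unadjusted p was 0.0386. The aminopeptidase gene Ctsh and the genes Ctsf and Ctso had log2 fold changes of -0.11 ± 0.11, -0.002 ± 0.09 and 0.05 ± 0.17. Without CTRL 2 Ctsh was at -0.22 (edgeR unadjusted p = 0.0484), and without CTRL 3 at -0.02.

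Ctsd and Ctsa, a pepsin-like aspartic protease and a serine carboxypeptidase that also shields neuraminidase and β-galactosidase, overlapped between the groups. Ctsd measured 419, 400 and 404 CPM in CTRL and 419, 443 and 435 CPM in CKO, and Ctsa measured 463, 434 and 467 CPM in CTRL and 434, 456 and 450 CPM in CKO. Their log2 fold changes were 0.08 ± 0.07 and -0.03 ± 0.07, with 95% intervals of -0.08 to 0.24 and -0.19 to 0.14.

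**Figure D2:**
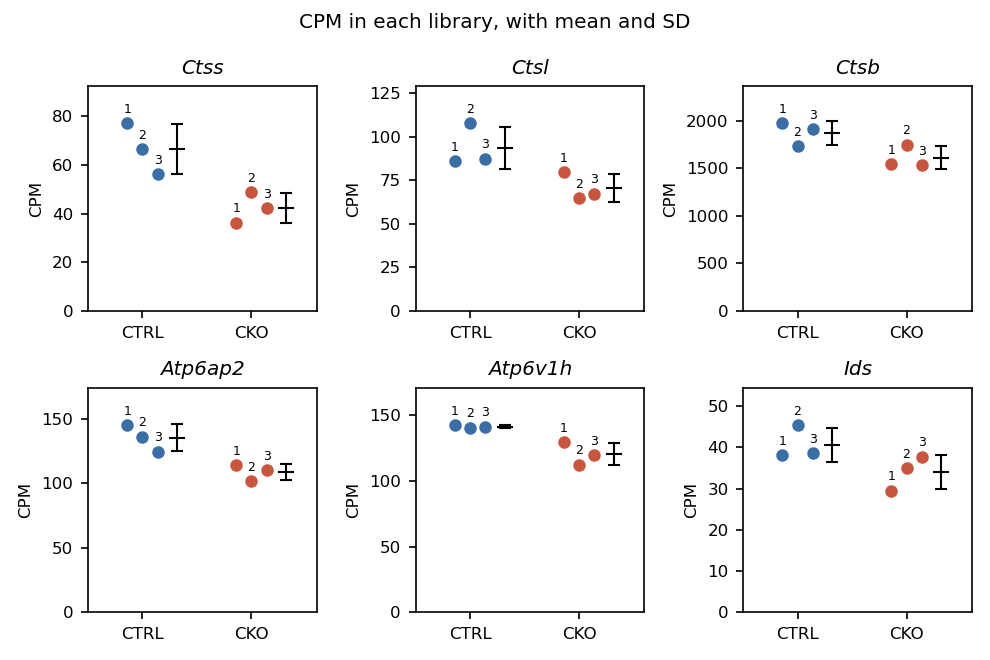
CPM in each library (y axis, from 0) for the 5 genes at an unadjusted p under 0.05 and for Ids; numbers mark the replicate, and the bar beside each group is its mean and SD (n = 3). In 5 panels all CKO points lie below all CTRL points; for Ctsb, CKO 2 lies above CTRL 2.

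The V-ATPase consists of a cytosolic V1 sector that hydrolyses ATP and a membrane V0 sector that carries protons, and accessory proteins assist its assembly. Atp6ap2 encodes an accessory protein also known as the prorenin receptor. It measured 145, 136 and 125 CPM in CTRL and 114, 102 and 110 CPM in CKO, with no overlap (log2 fold change -0.32 ± 0.09, edgeR unadjusted p = 0.00798, adjusted p = 0.658). It stayed between -0.37 and -0.27 and under an unadjusted p of 0.05 with each library left out. Atp6v1h encodes the V1 subunit H, which links V1 to V0. Its CTRL libraries were close together at 142, 140 and 141 CPM, and the CKO libraries stood at 129, 112 and 120 CPM (-0.23 ± 0.08, edgeR unadjusted p = 0.0228, adjusted p = 0.700). Without CTRL 1, CTRL 3, CKO 2 or CKO 3 its unadjusted p was between 0.0524 and 0.0843.

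The other pump genes overlapped between the groups. Atp6ap1, the other accessory gene, was the most abundant of them per length and stood at 549, 540 and 529 CPM in CTRL and 524, 527 and 571 CPM in CKO (0.005 ± 0.07). Its partner Atp6ap2 was present at 51.8 ± 3.94 CPM per kb in CTRL, beside 178 ± 3.33 for Atp6ap1 (SD, n = 3). Atp6v1b2, the B subunit of most tissues, varied more within groups than between them, at 364, 231 and 286 CPM in CTRL and 318, 262 and 310 CPM in CKO (0.01 ± 0.16). The catalytic A subunit gene Atp6v1a and the V0 stalk gene Atp6v0d1 had log2 fold changes of -0.15 ± 0.14 and -0.04 ± 0.09.

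Osteoclasts, the bone-resorbing cells, carry large amounts of V-ATPase and cathepsin K, and their markers varied between libraries. The summed CPM of 11 osteoclast markers was 2427, 1166 and 1996 in CTRL and 1689, 1102 and 1968 in CKO, lowest in CTRL 2 and CKO 2. Each of the genes Atp6v1a, Atp6v1b2, Atp6v1h and Atp6v0d1 was lowest in CTRL 2 among CTRL and in CKO 2 among CKO, as were Ctsz and Arsb. That made 6 of the 36 (16.7%), beside 11.2% of all tested genes and 9 of the 11 osteoclast markers. This order was noticed after the values were seen. The CTRL libraries differed little for Atp6v1h (142, 140 and 141 CPM) and Atp6v0d1 (66.9, 66.7 and 67.9 CPM). Atp6ap1 and Atp6ap2 were lowest in CTRL 3 among CTRL. None of the 11 markers passed the adjusted threshold, 1 (Nfatc1) was under an unadjusted p of 0.05, their median log2 fold change was -0.17, and Calcr was listed at 0 in CTRL 3. The part of osteoclast RNA in the pump values was not tested.

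Ctss, Ctsb and Ctsz are also strongly expressed by macrophages. Of 14 macrophage markers, 13 had a log2 fold change below 0 (median -0.29), with 0 past the adjusted threshold and 1, C1qa, under an unadjusted p of 0.05. Their summed CPM was 1235, 980 and 997 in CTRL and 767, 889 and 991 in CKO, so CKO 3 lay above CTRL 2. None of the 14 was at 0 in any library, and Lyz2 was the most abundant, at 294 ± 33.1 CPM in CTRL and 243 ± 52.2 CPM in CKO. Ctss was highest in CTRL 1 and lowest in CKO 1, the libraries with the highest and the lowest marker sum, and in CKO 3, the CKO library with the highest sum, it stood at 42.3 CPM, below all 3 CTRL values. The part of macrophage RNA in the cathepsin values was not tested. In tissue libraries such as these, fewer cells of a type and less RNA per cell cannot be told apart. Fibroblast markers had a median of -0.36 with 9 of 10 below 0, and chondrocyte markers a median of 0.23 with 13 of 14 above 0. The exception was Acan, at 1345 ± 85.9 CPM in CTRL and 882 ± 152 CPM in CKO (SD, n = 3) without overlap. Its log2 fold change was -0.61 ± 0.13 (edgeR adjusted p = 0.535). At an unadjusted p under 0.05, 5 chondrocyte markers were higher and 1 lower, and 0 fibroblast markers were higher and 3 lower. Over all tested genes 3.54% were higher and 2.96% lower. The chondrocyte marker sums ran from 28929 to 30077 CPM in CTRL and from 31247 to 37779 CPM in CKO, without overlap. Osteoblast and osteocyte markers lay above 0 for 9 of 9 genes (median 0.26), and their sums did not overlap either. Skeletal muscle markers summed to 1343 CPM in CTRL 2 and to 27.5 to 228 CPM in the other libraries.

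**Figure D3:**
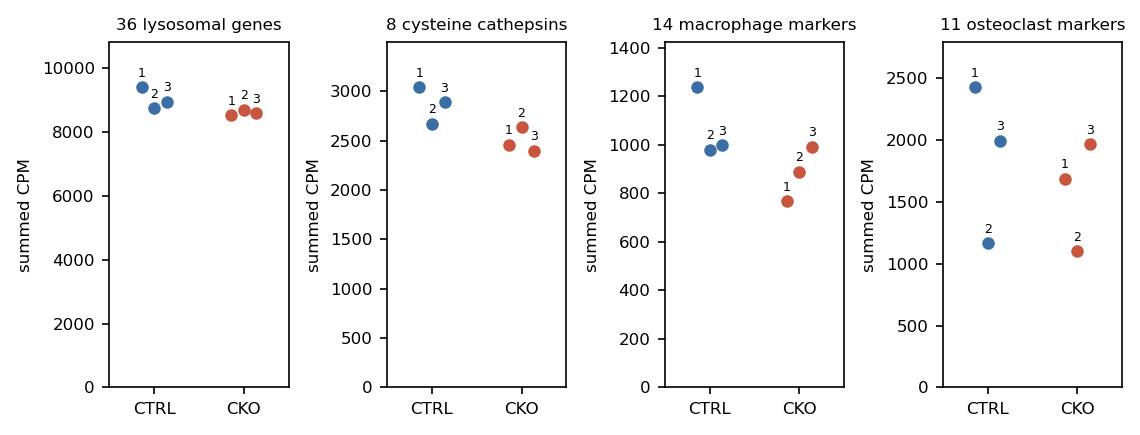
Summed CPM per library (y axes, from 0) of the 36 lysosomal genes, the 8 cysteine cathepsins, 14 macrophage markers and 11 osteoclast markers; points are libraries, numbered by replicate. The cysteine cathepsin sum was 3041, 2674 and 2888 in CTRL and 2462, 2640 and 2400 in CKO without overlap, while both marker sums overlapped between the groups. Most of the cathepsin sum was Ctsb, which overlapped between the groups. Its mean was 1873 of 2868 CPM in CTRL and 1609 of 2501 CPM in CKO.

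The glycosidases remove sugars from the ends of glycan chains. Hexa, the α subunit of β-hexosaminidase, was the most abundant per length, at 500, 366 and 456 CPM in CTRL and 447, 454 and 422 CPM in CKO. CTRL held both the highest and the lowest library, and the log2 fold change was 0.001 ± 0.11. Gaa, the acid α-glucosidase that digests glycogen, stood at 261, 284 and 283 CPM in CTRL and 285, 264 and 256 CPM in CKO (-0.04 ± 0.08). Glb1 (β-galactosidase, which acts on keratan sulfate) ranged from 48.2 to 78.9 CPM in CTRL and from 66.6 to 94.1 CPM in CKO (0.20 ± 0.20). Gusb (β-glucuronidase), Idua (α-L-iduronidase), Man2b1 (α-mannosidase) and Neu1 (sialidase) lay between -0.06 and 0.04. As a group, the summed level of the 7 glycosidases was 1069 ± 67.6 CPM in CTRL and 1069 ± 14.4 CPM in CKO (SD, n = 3).

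Sulfatases take sulfate groups off glycosaminoglycans before the sugars can be removed, and none of the 3 genes was under an unadjusted p of 0.05 with all libraries. Ids, the iduronate sulfatase of dermatan and heparan sulfate breakdown, measured 38.1, 45.4 and 38.5 CPM in CTRL and 29.4, 34.9 and 37.8 CPM in CKO. The groups did not overlap, but CKO 3 and CTRL 1 were less than 1 CPM apart, and the unadjusted p was 0.0989 in edgeR (-0.26 ± 0.14). Galns, the galactosamine-6-sulfatase of keratan and chondroitin sulfate, stood at 16.4, 17.8 and 22.4 CPM in CTRL and 25.1, 19.8 and 23.4 CPM in CKO (0.27 ± 0.17, the highest of the 36). Without CTRL 3 its unadjusted p was 0.0488 in edgeR and its log2 fold change 0.41. Arsb, the N-acetylgalactosamine-4-sulfatase, stood at 105, 74.1 and 90.1 CPM in CTRL and 99.7, 70.0 and 123 CPM in CKO, a spread within CKO wider than the difference between groups (0.12 ± 0.20).

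Genes of lipid breakdown and sterol export overlapped between the groups. Psap, the precursor of the saposins that present sphingolipids to their hydrolases, measured 531, 566 and 530 CPM in CTRL and 525, 545 and 649 CPM in CKO, with CKO 3 the highest (0.08 ± 0.10). Npc2, the soluble cholesterol carrier, stood at 369, 346 and 343 CPM in CTRL and 363, 362 and 360 CPM in CKO (0.04 ± 0.07). Npc1, the membrane protein that receives cholesterol from NPC2, had the lowest level per length of the 36, at 1.82 ± 0.15 CPM per kb in CTRL and 1.64 ± 0.22 in CKO (SD, n = 3), with a log2 fold change of -0.15 ± 0.16. The acid ceramidase gene Asah1 and the acid sphingomyelinase gene Smpd1 had -0.07 ± 0.08 and -0.08 ± 0.09.

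Lamp1 and Lamp2, the heavily glycosylated proteins that line the lysosomal membrane, overlapped between the groups. Lamp1 stood at 668, 715 and 661 CPM in CTRL and 666, 731 and 677 CPM in CKO (0.02 ± 0.08). Lamp2 stood at 611, 606 and 561 CPM in CTRL and 570, 567 and 486 CPM in CKO, with CKO 3 the lowest (-0.13 ± 0.09). Scarb2, the sorting receptor of glucocerebrosidase, had 0.03 ± 0.11. The regulators were low and overlapped: Tfeb measured 29.2, 30.0 and 25.7 CPM in CTRL and 28.2, 26.4 and 26.5 CPM in CKO (-0.07 ± 0.12). Mcoln1, the lysosomal calcium channel upstream of TFEB activation, measured 86.4, 91.9 and 71.8 CPM in CTRL and 83.4, 96.4 and 92.7 CPM in CKO (0.12 ± 0.11).

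**Figure D4:**
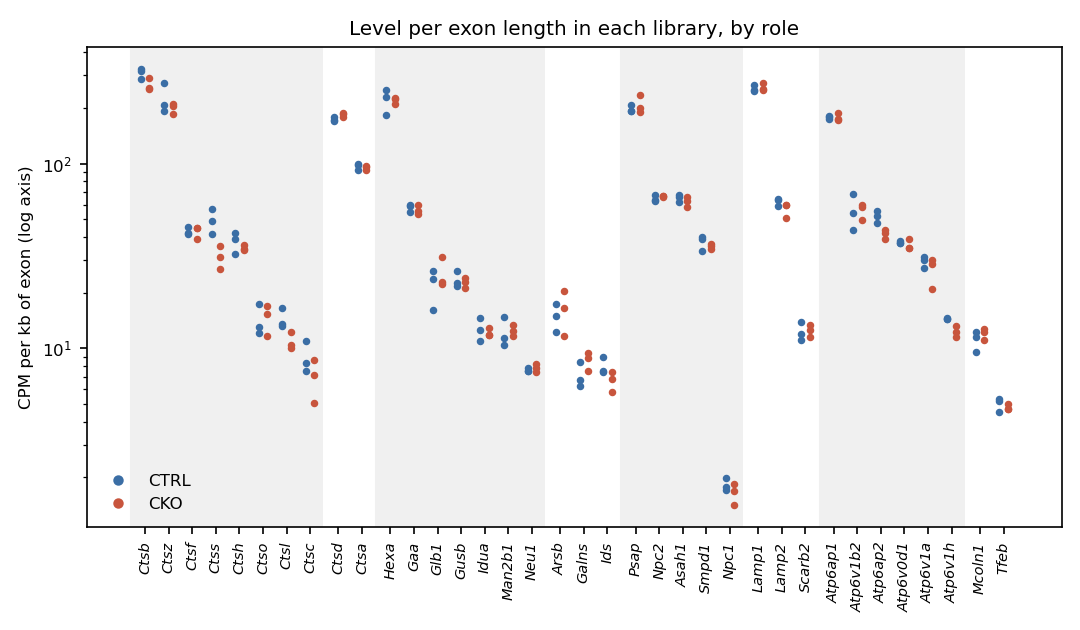
CPM per kb of annotated exon (log axis) in each library for the 36 genes, grouped by role (shading) and ordered by level within a role; blue points are CTRL and red points CKO libraries. Ctsb, Lamp1 and Hexa are at the top, Npc1 is at the bottom, and the points of the groups lie close together for most genes.

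Per exon length, the mean over all 6 libraries spanned 166-fold, from Npc1 to Ctsb. Ctsb was followed by Lamp1, Hexa, Ctsz, Psap, Ctsd and Atp6ap1, which all exceeded 170 CPM per kb in both groups. In CTRL, Lamp1 (255 ± 10.99), Hexa (221 ± 34.1) and Ctsz (225 ± 42.7) did not differ beyond their spread (CPM per kb, SD, n = 3). Nor did Ctsd (173 ± 4.35) and Atp6ap1 (178 ± 3.33) in CTRL. In CKO, Lamp1 at 259 ± 13.0 lay above Hexa at 221 ± 8.47 and Ctsz at 201 ± 13.0 by more than their spread. Lengths are the union of annotated exons, so genes with long rare isoforms are placed too low. Several genes share exon sequence with an annotated neighbour, and the strand setting of the counting is not given. The shared part was 34.4% of the exon length for Ctsd (with Gm49369, at 0 CPM in both groups), 26.9% for Ctsl (with the antisense Gm47123, also at 0) and 12.8% for Ctsb (with Fdft1, log2 fold change 0.15). For Arsb it was 32.3%, with the opposite-strand Gm26527. How reads in shared parts were counted is not stated, so a neighbour at 0 CPM does not show that the listed gene kept them. The levels per length of these genes may therefore be too low. Of the 36, 4 lie on the X chromosome (Ids, Lamp2, Atp6ap1 and Atp6ap2). The Y-linked gene Ddx3y stood at 136 to 155 CPM in all 6 libraries and Xist at 0 to 0.132 CPM.

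The promoters of these genes were searched for the E-box CACGTG and its longer CLEAR forms on both strands, since that element is the sequence feature by which TFEB targets are known. RefSeq promoter sequence on GRCm38.p6, from 250 bases before to 50 after the start, was at hand for 29 of the 36 genes in 33 entries. CACGTG was found for 10 of 29 genes (34.5%), beside 11.4% of tested genes and 8.09% of all genes with an entry. The longer TCACGTG, which contains it, was found for 8 of 29 (27.6%, beside 6.70% of tested genes), TCACGTGA for 5 of 29 (17.2%, beside 2.08%), and TCACGTGA with G before it and C after it for 0 of 29 (beside 0.722%). In like lists, CACGTG was found for 50% of 8 lysosomal sorting genes and 24.1% of 29 other hydrolase and cofactor genes. It was found for 16.7% of 18 other lysosomal membrane genes, 15.4% of 13 autophagy genes and 13.3% of 15 other V-ATPase genes. The stretches below hold such E-boxes in capitals and are printed 5′ to 3′ on the gene's strand. They come from genes whose values overlapped between the groups, and Lamp1 is shown because it holds 4 copies. Ctsa, Ctsd, Mcoln1, Atp6v0d1 and Ctsl also held CACGTG and are not printed. With Ctsl left out, the printed stretches do not compare lower genes with the others. For Atp6v1a the RefSeq start lies 446 bases inside the annotated gene, so its stretch lies within the gene, with 0 bases in annotated exons. Ctsa, counted among the 10, held CACGTG only at a RefSeq start 900 bases inside the annotated gene. For Ctsd the RefSeq start lies 211 bases inside the annotated gene, and its CACGTG at 98 bases before that start lies in an annotated exon.

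Lamp1 (chr8:13159080-13159160, plus strand): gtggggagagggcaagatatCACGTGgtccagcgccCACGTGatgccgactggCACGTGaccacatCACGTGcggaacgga
Glb1 (chr9:114401010-114401055, plus strand): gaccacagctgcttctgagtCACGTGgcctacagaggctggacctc
Gaa (chr11:119267803-119267848, plus strand): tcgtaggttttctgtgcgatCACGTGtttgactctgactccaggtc
Atp6v1a (chr16:44139365-44139410, minus strand): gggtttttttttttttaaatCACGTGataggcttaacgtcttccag
Ctsf (chr19:4855066-4855111, plus strand): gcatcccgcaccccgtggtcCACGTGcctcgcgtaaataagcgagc

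Of the 5 genes at an unadjusted p under 0.05, 3 had a promoter entry, and Ctsb and Atp6v1h had none. Ctss and Atp6ap2 held no CACGTG in the window. For Ctsl the RefSeq start lies 370 bases inside the annotated gene, and its window held 1 CACGTG at 236 bases before that start, not within a TCACGTG on either strand. The 250 bases before the start of Ctss and Atp6ap2 are shown, with no motif to capitalise.

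Ctss (chr3:95526536-95526785, plus strand): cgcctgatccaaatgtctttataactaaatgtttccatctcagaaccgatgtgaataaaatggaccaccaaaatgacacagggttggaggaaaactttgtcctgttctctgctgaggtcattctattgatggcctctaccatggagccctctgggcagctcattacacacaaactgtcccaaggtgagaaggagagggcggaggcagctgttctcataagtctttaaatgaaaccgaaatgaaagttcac
Atp6ap2 (chrX:12587509-12587758, plus strand): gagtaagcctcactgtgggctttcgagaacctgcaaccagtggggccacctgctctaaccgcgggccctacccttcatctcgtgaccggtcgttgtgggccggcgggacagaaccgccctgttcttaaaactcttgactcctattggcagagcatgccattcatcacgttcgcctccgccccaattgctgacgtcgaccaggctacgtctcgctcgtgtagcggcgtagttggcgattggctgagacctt

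The upstream part of Ctss was poorer in G and C (44.8%) than that of Atp6ap2 (59.2%) or Lamp1 (59.6%). The 10 genes with CACGTG had a median log2 fold change of -0.01 and the 19 without it -0.05. These matches describe letters in a window and do not show binding.

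Other lysosomal genes were listed with results of these data already known, and their counts stand beside the 6.5% of all tested genes under an unadjusted p of 0.05. Of 39 further hydrolases and cofactors, 14 lay above 0 and 25 below (median -0.07), with 0 past the adjusted threshold and, at an unadjusted p under 0.05, 1 higher and 1 lower. The higher one was Ctse, cathepsin E, an aspartic protease found in erythroid and immune cells, at 32.9, 15.7 and 28.8 CPM in CTRL and 44.3, 41.4 and 88.9 CPM in CKO (1.17 ± 0.35, edgeR adjusted p = 0.658). Erythroid markers lay above 0 for 9 of 9 genes in the same comparison (median 0.35). At an unadjusted p under 0.05, 4 of them were higher, beside 3.54% of all tested genes. Klf1, an erythroid transcription factor, stood at 5.21 ± 1.79 CPM in CTRL and 14.5 ± 5.41 CPM in CKO. The part of erythroid RNA in the Ctse value was not tested. The lower one was Arsa, arylsulfatase A, at 28.6 ± 6.24 CPM in CTRL and 20.2 ± 4.36 CPM in CKO (SD, n = 3). Ctsk, the collagenolytic cathepsin of osteoclasts, was the most abundant by CPM, at 1002, 430 and 831 in CTRL and 600, 424 and 723 in CKO (-0.37 ± 0.30).

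Of 19 further V-ATPase subunit genes, 15 were tested and 0 reached an unadjusted p under 0.05 in edgeR (5 above 0, 10 below, median -0.05). Atp6v0a1, a V0 subunit a gene, stood at 39.3 ± 3.48 CPM in CTRL and 48.3 ± 9.39 CPM in CKO, and Atp6v0e at 408 ± 39.1 CPM and 440 ± 15.8 CPM. Among 20 further lysosomal membrane genes 14 lay below 0 (median -0.08), and Slc11a1, a metal transporter of phagocytes, was the 1 under an unadjusted p of 0.05, at 4.84 ± 0.88 CPM in CTRL and 8.09 ± 1.42 CPM in CKO. Neutrophil markers lay above 0 for 8 of 9 genes (median 0.40), with sums of 1933, 1095 and 1519 CPM in CTRL and 1298, 1687 and 2720 CPM in CKO, and their part in the Slc11a1 and Ctse values was not tested. Neither the 11 sorting genes (median -0.04), the 17 genes of the TFE factors and nutrient sensing (median 0.13) nor the 17 autophagy genes (median -0.04) held a gene under an unadjusted p of 0.05.

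Cystatins inhibit cysteine cathepsins, and Cst3, which encodes cystatin C, was by far the most abundant of the 7 listed. It measured 14990, 17147 and 17051 CPM in CTRL and 17449, 19721 and 19260 CPM in CKO. Each CKO library was above each CTRL library, by a log2 fold change of 0.20 ± 0.08 (edgeR unadjusted p = 0.0377, adjusted p = 0.726), and Cstb, which encodes cystatin B, overlapped at -0.08 ± 0.10.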

How the data were processed

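Knee cartilage RNA was made into full-length cDNA with SMART-Seq v4, a kit that does not mark strand, per the labels' protocols. The deposited table of raw counts per gene and a table of normalized signal (the same counts divided by size factors) came from the authors. Per the submitters' processing notes reads were handled on GRCm38 with HISAT2 2.2.1 and featureCounts 2.0.1 among the tools, and DESeq2 1.30.1 is listed too; their settings for strand and multiply mapped reads are not stated there. The signal gave back whole reads for 100% of its values within 0.001 reads, with 0 differing from the counts. No column was left without a sample.

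Counts were analysed in R 4.3.3 with edgeR 4.0.16: low-count filter at its defaults, TMM factors, a quasi-likelihood test of CKO against CTRL over 16260 genes and Benjamini-Hochberg adjustment over all of them. The SE is the fold change divided by the square root of F. Alternatives used DESeq2 1.42.0, limma 3.58.1, other scalings and filters, and left out single libraries. The fit was tested on simulated counts. An exact permutation test of 3 against 3 libraries cannot go below 0.1 and was not used. Symbols, coordinates and exon lengths came from GENCODE on GRCm38.

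The 36 genes, the other lysosomal lists and the cell type markers were chosen with earlier results of these data known. Values by library are given for genes at an unadjusted p under 0.05 or without overlap and for the most abundant genes of each role. From other lists, genes past the threshold or else those with the smallest p and the most abundant were eligible. A comparison of protein sequences was not run.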

Additional observations from a re-analysis of the deposited data

How the results depend on the processing

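The comparison was refitted under 17 alternatives, of which 1, edgeR on reads recovered from the normalized signal, was chosen after seeing the data. The recovered reads equalled the counts, so that refit repeated the main one and could not differ from it. Scin passed the adjusted threshold under each of the 17, at -2.59 with the replicate block and from -2.73 to -2.50 with single libraries left out. With DESeq2, 82 genes and 1 of the 36 lysosomal genes (Ctss) passed the adjusted threshold, and without a filter 3 genes passed in edgeR; the cause was not tested. With single libraries left out, 1 to 2 genes passed, and 3 to 6 of the 36 were under an unadjusted p of 0.05 (3 without CTRL 1, 6 without CTRL 2), beside 5 with all libraries. Deviations of same-numbered libraries from their group means correlated at -0.024, 0.091 and 0.034. Those of differently numbered libraries ran from -0.089 to 0.065. With 3 libraries per group these values cannot decide whether the numbers pair the samples. With the replicate block 4 of the 36 were under an unadjusted p of 0.05, Ctsb being at 0.0625.

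Of the 36 genes, 24 kept their sign under every alternative run, and the 12 that did not had log2 fold changes of at most 0.12 in size. Hexa was at -0.0045 with DESeq2, -0.0034 with RLE factors, -0.0096 with library sizes alone, -0.0040 without a filter and -0.0013 with the filter of 1 CPM. Atp6ap1 was at -0.0015 with DESeq2, -0.0024 with limma-trend, -0.00036 with RLE factors, -0.0033 with library sizes alone and -0.00074 without a filter. With single libraries left out, the ranges were -0.0356 to 0.0649 for Ctsf, -0.0686 to 0.209 for Ctso, -0.103 to 0.0299 for Gusb and -0.122 to 0.0967 for Hexa. They were -0.0612 to 0.190 for Man2b1, -0.162 to 0.0432 for Idua, -0.0804 to 0.308 for Arsb and -0.0176 to 0.139 for Psap. For Lamp1 they were -0.0204 to 0.0511, for Scarb2 -0.0474 to 0.113, for Atp6v1b2 -0.139 to 0.191 and for Atp6ap1 -0.0348 to 0.0280. In simulated counts over all tested genes, 46.5% of 2-fold changes were recovered at the adjusted threshold; smaller changes were not simulated.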
